A study of Mus musculus with 12 samples.

Results

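Transcripts of 5 genes that govern where lymphocytes reside were followed in re-activated murine CD4+ T cells: the sphingosine-1-phosphate (S1P) receptors S1pr1 and S1pr4, the transcription factor Klf2, the chemokine receptor Ccr7 and the egress inhibitor Cd69. They were taken as a named list of KLF2-linked egress and lymph node homing genes and are 5 of the 56691 mouse genes in the count table and of the 15138 that carried enough reads to be tested. All cells came from Tg4 Nr4a3-Tocky Il10-GFP mice, whose transgenic T cell receptor recognises a myelin basic protein (MBP) peptide and whose Timer protein turns from a Blue to a Red form after Nr4a3 is transcribed. Each mouse received 4 mg/kg of the [4Y]-MBP peptide under the skin. After 24 h it received isotype control antibody, anti-Lag3 (clone C9B7W), anti-PD-L1 (clone MIH5) or both blocking antibodies in equal parts (combination blockade, CB). The antibody dose was 0.5 mg in the isotype and single-antibody groups, and the total dose in CB was not clear from the sources used here. A second peptide dose of 0.4 mg/kg followed 30 min later in every group, and spleens were taken 12 h after that. Live splenic CD4+ Timer Blue+ Red+ responder cells from 3 mice per group were sorted and sequenced from the 3' ends of their mRNA, giving 12 libraries. There was no group without peptide, so isotype stands for peptide re-challenge without blockade. The comparisons address how blockade of either pathway, or of both, alters these genes during re-activation.

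S1P is plentiful in blood and lymph and scarce inside lymphoid tissue, and T cells that carry S1PR1 leave the tissue along this gradient. KLF2 drives transcription of S1pr1, FOXO1 acts upstream of Klf2, and T cell receptor signalling lowers Klf2. CD69, which rises early after activation, binds S1PR1 at the cell surface and brings about its internalisation, and CCR7 guides T cells to the T cell zones of lymph nodes and spleen. S1PR4 is a further lymphocyte S1P receptor.

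In GRCm38 (GENCODE M21), S1pr1 (ENSMUSG00000045092) lies on the minus strand at chr3:115710433-115715072 and has 1 transcript of 2 exons. S1pr4 (ENSMUSG00000044199) is a gene of 1 exon at chr10:81497747-81500132, minus strand. Klf2 (ENSMUSG00000055148) spans chr8:72319033-72321656 on the plus strand in 3 exons. Ccr7 (ENSMUSG00000037944) spans chr11:99144196-99155077 on the minus strand in 3 exons, and Cd69 (ENSMUSG00000030156) spans chr6:129267325-129275436 on the minus strand with 5 transcripts. No gene annotated in GENCODE M21 overlapped any of them. The annotation release used for the counts is not given in the sources used here. RefSeq promoter windows (GRCm38.p6) were at hand for 2 of the 5, S1pr4 and Klf2. The 250 bases before the RefSeq start of Klf2, at chr8:72318812-72319061 on the plus strand, are shown because Klf2 is the regulator that links the list, with the matches to 3 motifs in capitals.
Klf2: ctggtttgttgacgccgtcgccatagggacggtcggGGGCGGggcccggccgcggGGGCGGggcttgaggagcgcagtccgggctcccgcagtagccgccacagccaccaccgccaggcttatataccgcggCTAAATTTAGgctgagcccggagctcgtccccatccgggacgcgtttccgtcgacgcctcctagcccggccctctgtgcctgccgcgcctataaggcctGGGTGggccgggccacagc
In order, the capitals mark 2 GGGCGG boxes, 1 consensus MEF2 site and 1 CACCC box read on the opposite strand (printed as GGGTG). The window held no GTAAACA, the FOXO core, on either strand. Of 32851 mouse promoter windows of the same length, 32.7% held GGGCGG, 0.508% the MEF2 consensus, 52.01% CACCC and 3.17% GTAAACA, on either strand. The S1pr4 window held 1 CACCC and none of the other 3 motifs. The last 29 bases of the Klf2 window, with the CACCC box, lie inside the gene as GENCODE annotates it, since its start there is upstream of the RefSeq start. These matches describe the sequence only.

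Libraries held 16449370 to 22151025 reads on genes (median 19176439), and each gene of the list was read at least 622 times in every library. Levels are given as counts per 1000000 reads (CPM) after trimmed mean of M values (TMM) scaling, and differences as log2 fold changes from quasi-likelihood tests in edgeR, with p-values adjusted by Benjamini and Hochberg's method over the 15138 genes and a call made at an adjusted p below 0.05. The share of all genes called was 4.29% for CB against isotype, 0.033% for anti-PD-L1 against isotype, 0.37% for CB against anti-PD-L1 and 0.694% for CB against anti-Lag3. It was 0% for anti-Lag3 against isotype, for anti-PD-L1 against anti-Lag3 and for the interaction, where 788, 710 and 898 genes had an unadjusted p below 0.05 and DESeq2 (tested against 0) called 9, 10 and 5. The CD4 T cell markers were present in every library. Their summed level over 8 genes was 3259 to 3450 CPM with isotype and 3188 to 3230 with anti-Lag3. It was 2979 to 3482 CPM with anti-PD-L1 and 2944 to 2985 with CB. Of the 2 CD8 T cell markers, Cd8a did not exceed 3.24 CPM but Cd8b1 was read at 24.4 to 46.4 CPM in every library, with means of 42.0 for isotype, 37.5 for anti-Lag3, 26.9 for anti-PD-L1 and 29.7 for CB. Of the B cell markers, Ighm gave most of the sum (323 to 412 CPM), Cd74 reached 17.4 CPM and Cd79a did not exceed 1.11 CPM. The samples were stained with a different CD4 fluorochrome for each group before a shared sort, so fluorochrome and group cannot be told apart. Which mice shared a sort is not given in the sources used here. The paper attributes the second principal component of these data largely to batch effects of sorting. The main fit used here holds no sort term.

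S1pr1 was the one gene of the list that fell past the threshold, and it did so in CB against isotype and in CB against anti-Lag3. It was read at 133, 137 and 116 CPM in the isotype mice. It stood at 97.9, 91.0 and 111 CPM after anti-Lag3 and at 76.1, 72.5 and 74.2 CPM after anti-PD-L1. CB gave 55.9, 57.6 and 31.3 CPM. Every CB mouse was therefore below every anti-PD-L1 mouse, every anti-PD-L1 mouse below every anti-Lag3 mouse, and every anti-Lag3 mouse below every isotype mouse.
The group means were 129 ± 10.7 for isotype, 100.1 ± 10.4 for anti-Lag3, 74.3 ± 1.78 for anti-PD-L1 and 48.3 ± 14.7 CPM for CB (SD, n = 3). The third CB mouse stood apart from the other 2, which gave CB the widest spread of the groups for this gene.
This stepwise order was noticed after the values had been seen. S1pr1 was the only 1 of the 15138 genes (0.00661%) whose groups lay apart in that order. Scaling by DESeq2 size factors or the authors' rlog values also left S1pr1 alone, and library size alone added 1 gene, Pclaf. The opposite order, highest in CB, was held by 6 genes with TMM scaling. In any order, all 4 groups lay apart for 11 genes with TMM scaling and for 8 to 15 with the other scalings. Since the order was read from S1pr1 itself, its rarity is not a test.

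**Figure D1:**
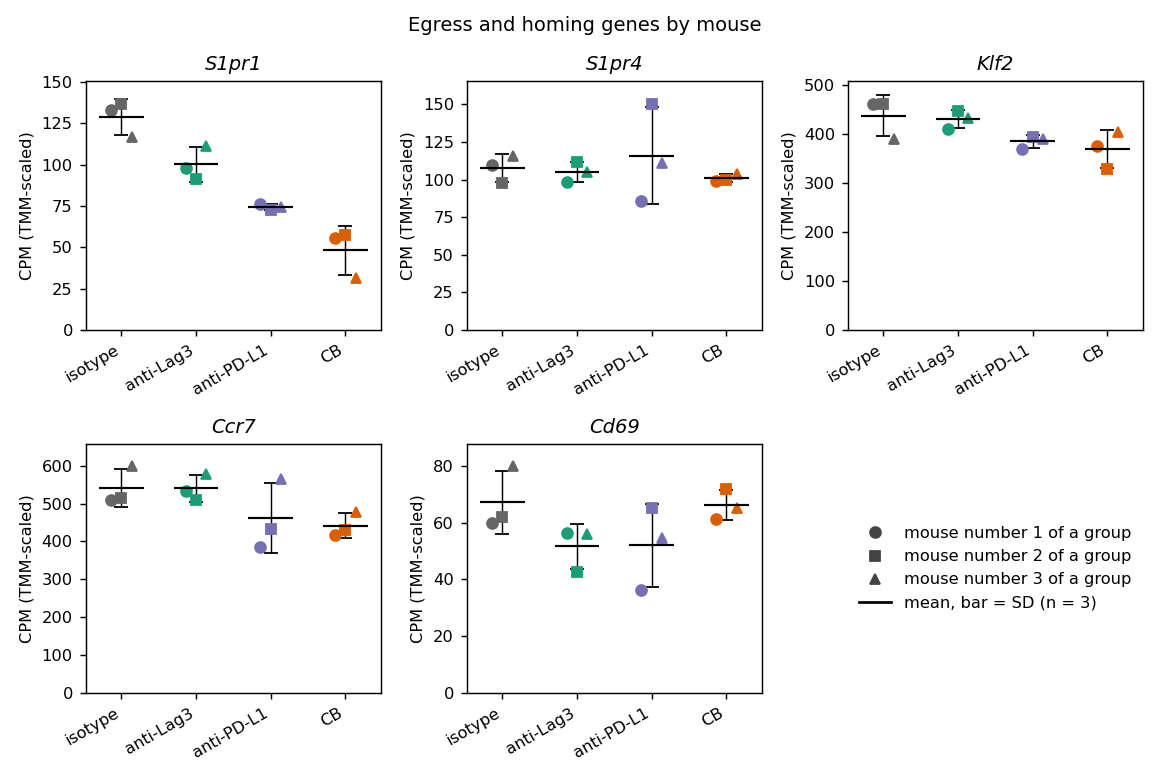
Each panel plots the level of 1 gene in CPM (TMM-scaled, linear axis from 0) for the 3 mice of each group, with the mean as a line and the SD as a bar. S1pr1 steps down from 129 CPM on average with isotype to 48.3 CPM with CB without overlap between groups, whereas the groups of the other 4 genes overlap in most comparisons.

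In CB against isotype S1pr1 fell by 1.41 on the log2 scale (SE 0.17, 95% confidence interval -1.76 to -1.06, adjusted p = 1.03e-05), a level 2.66-fold lower. Without the third CB mouse, the lowest library, the log2 fold change was -1.18 and remained past the threshold. Among the 296 genes called lower in this comparison (1.96% of those tested), S1pr1 held position 32 by log2 fold change and position 6 by p. In CB against anti-Lag3 it fell by 1.05 (SE 0.17, 95% confidence interval -1.40 to -0.71, adjusted p = 0.00144), in a comparison that called 0.304% of genes lower.
The steps that involve anti-PD-L1 were smaller. S1pr1 differed by -0.79 (SE 0.17, 95% confidence interval -1.14 to -0.45, adjusted p = 0.102) between anti-PD-L1 and isotype. This value passed the threshold in 5 of 8 alternative analyses, and also when the third CB mouse, which belongs to neither group but adds to the common estimate of spread, was left out (adjusted p = 0.0124).
CB differed from anti-PD-L1 by -0.62 (SE 0.17, 95% confidence interval -0.97 to -0.28, adjusted p = 0.122), in a comparison that called 0.165% of genes lower. It passed the threshold in 2 of 8 alternative analyses, and without the third CB mouse the difference was -0.39 (adjusted p = 0.624). Anti-Lag3 differed from isotype by -0.36 (95% confidence interval -0.70 to -0.019, adjusted p = 0.805), and anti-PD-L1 from anti-Lag3 by -0.43 (95% confidence interval -0.77 to -0.087, adjusted p = 0.802).
Groups that did not overlap in the lower direction were held by 9.62% of genes for CB against isotype, 6.46% for anti-PD-L1 against isotype, 4.81% for anti-Lag3 against isotype, 5.75% for CB against anti-PD-L1, 7.09% for CB against anti-Lag3 and 4.69% for anti-PD-L1 against anti-Lag3. The absence of overlap in any single comparison was thus common among genes. These comparisons share isotype, anti-PD-L1, anti-Lag3 or CB mice and are not independent of each other.
The interaction asks whether the CB change differs from the sum of the 2 single-antibody changes. For S1pr1 it was -0.26 (SE 0.24, 95% confidence interval -0.75 to 0.22, adjusted p = 1.00), so a departure from that sum was not detected, and the interval leaves room for one in either direction. It ranged from -0.41 without the second CB mouse to -0.027 without the third.

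**Figure D2:**
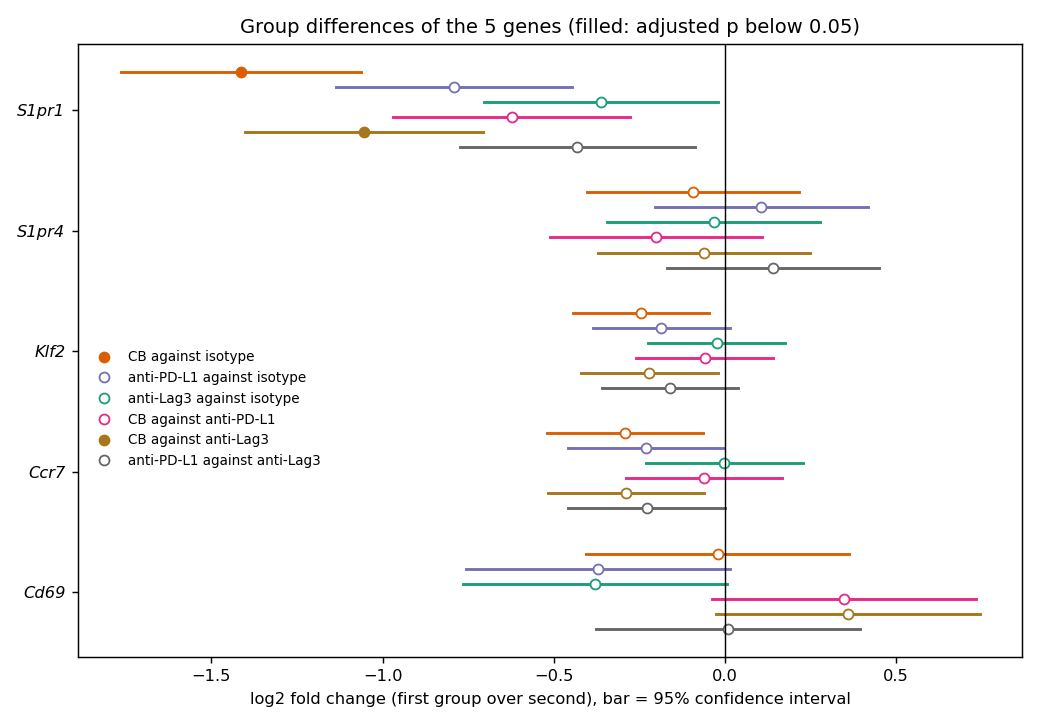
Points give the log2 fold change of each gene in 6 comparisons, bars the 95% confidence interval from edgeR, and filled points an adjusted p below 0.05. The 2 filled points belong to S1pr1, at -1.41 for CB against isotype and at -1.05 for CB against anti-Lag3, and all 6 S1pr1 intervals lie below 0.

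In bulk libraries such as these, fewer cells that express a gene and less RNA per cell cannot be told apart. Red cell transcripts moved with S1pr1. The summed level of 6 erythroid genes was 241 to 451 CPM with isotype, 216 to 289 with anti-Lag3, 171 to 217 with anti-PD-L1 and 150 to 198 with CB. Of these genes Hbb-bs (-0.75, adjusted p = 0.00509) and Hbb-bt (-0.99, adjusted p = 0.00363) were called lower in CB against isotype. Gzma, a cytotoxic granule protease on the natural killer cell list, was also lower (-1.49, adjusted p = 0.00569), with 26.3 ± 7.62 CPM with isotype and 9.37 ± 2.51 with CB (SD, n = 3). It was the only 1 of the 6 genes on that list to be called. The summed level of the list was 21.4 to 36.5 CPM with isotype and 12.3 to 19.9 with CB, mostly Gzma, while 4 of the 6 genes had a log2 fold change above 0, all 4 at means of at most 3.12 CPM in both groups. Of the 10 B cell, 8 myeloid and 2 CD8 T cell markers 0 were called in CB against isotype by edgeR or DESeq2, with 0, 3 and 1 at an unadjusted p below 0.05. Of the T cell markers, Cd4 (-0.50, adjusted p = 0.00918) and Cd3e (-0.39, adjusted p = 0.0401) were lower in CB. The part of these transcripts in the S1pr1 result was not tested.

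For S1pr4 no difference between groups exceeded the spread between mice. It was read at 109, 97.6 and 116 CPM with isotype, 98.6, 112 and 105 with anti-Lag3, 86.0, 150 and 111 with anti-PD-L1, and 99.2, 99.6 and 104 with CB. The groups overlapped in all 6 pairwise comparisons, and the second anti-PD-L1 mouse was the highest of all 12. The difference between CB and isotype was -0.093 (SE 0.15, 95% confidence interval -0.40 to 0.22, adjusted p = 0.890). The bounds allow a decline of at most 0.40 on the log2 scale at this confidence, against an interval for S1pr1 that ends at -1.06.
Of the other S1P receptors, S1pr2, which couples to G proteins that restrain migration, was read at 1.39 to 6.62 CPM and was not called (0.10, 95% confidence interval -1.32 to 1.53, adjusted p = 0.999). S1pr3 had 1 read over the 12 libraries and was under the filter. S1pr5 had none of 232047713 reads, which allows up to 0.0129 CPM, a limit that covers counting error only.

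Klf2 was read at 462, 462 and 390 CPM with isotype and at 412, 448 and 433 with anti-Lag3. Anti-PD-L1 gave 371, 394 and 391 CPM, and CB gave 376, 329 and 404. The isotype and CB mice overlapped, since the third isotype mouse was below the third CB mouse. The Klf2 difference between CB and isotype did not pass adjustment (log2 fold change -0.24, SE 0.097, 95% confidence interval -0.44 to -0.05, adjusted p = 0.192).
Klf2 levels did not overlap between CB and anti-Lag3 (-0.22, adjusted p = 0.460) or between anti-PD-L1 and anti-Lag3 (-0.16, adjusted p = 0.803), being lower in the first group named. The confidence intervals of Klf2 and S1pr1 in CB against isotype did not overlap.
The ratio of S1pr1 to Klf2 reads, taken within each library and so free of library scaling, was added after the values had been seen. On the log2 scale it was -1.80 to -1.74 with isotype, -2.30 to -1.96 with anti-Lag3, -2.44 to -2.28 with anti-PD-L1 and -3.69 to -2.51 with CB. The CB libraries were below all others, and the isotype libraries above all others, while anti-Lag3 and anti-PD-L1 overlapped by 1 library. Against S1pr4 the ratio was 0.0092 to 0.49 with isotype and -1.73 to -0.79 with CB, and here CB overlapped anti-PD-L1.

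**Figure D3:**
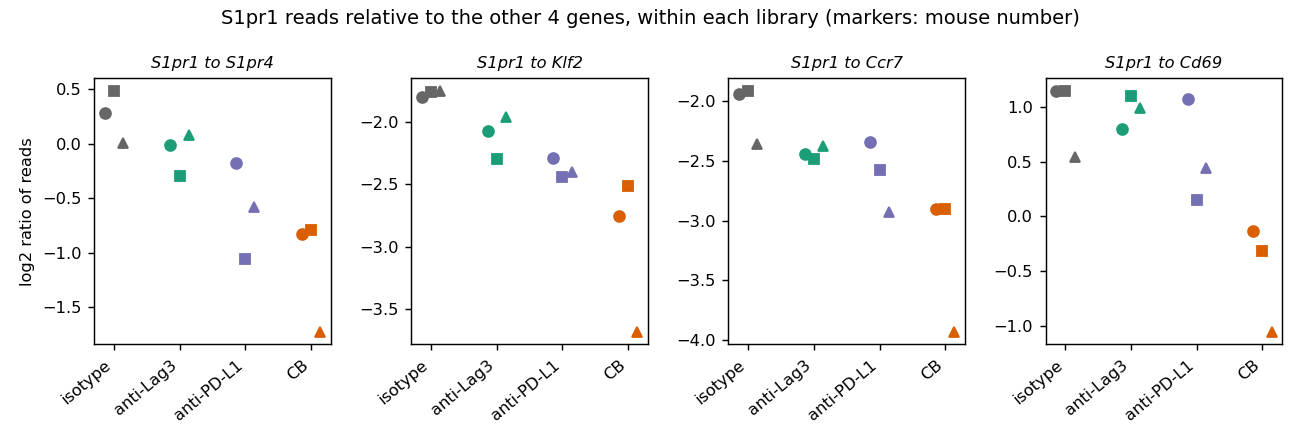
Each panel plots the log2 ratio of S1pr1 reads to the reads of another gene of the list in the same library, with 1 marker per mouse. In all 4 panels the CB libraries lie below the isotype libraries, from -3.69 to -2.51 against -1.80 to -1.74 for Klf2.

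Ccr7 was read at 509, 515 and 598 CPM with isotype and 534, 509 and 578 with anti-Lag3. Anti-PD-L1 gave 386, 434 and 564 CPM, and CB gave 417, 430 and 479. The 3 CB mice were below every isotype and every anti-Lag3 mouse, while the anti-PD-L1 mice were spread across both ranges. The difference was -0.29 for CB against isotype (SE 0.11, 95% confidence interval -0.52 to -0.06, adjusted p = 0.169) and -0.29 for CB against anti-Lag3 (SE 0.11, adjusted p = 0.342). Neither passed adjustment in this fit, and CB against isotype passed in 1 of 8 alternative analyses (adjusted p = 0.0381). Anti-Lag3 and isotype differed by -0.0010 (95% confidence interval -0.23 to 0.23), and anti-PD-L1 and isotype by -0.23 (adjusted p = 0.593). The latter was -0.12 without the first anti-PD-L1 mouse and -0.40 without the third.

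Cd69 followed another pattern, with the CB mean near the isotype mean and both single-antibody means below them, although no difference passed adjustment. It was read at 59.8, 61.9 and 79.9 CPM with isotype, 56.3, 42.6 and 56.1 with anti-Lag3, 36.1, 65.3 and 54.6 with anti-PD-L1, and 61.5, 71.9 and 65.3 with CB. The anti-Lag3 mice were below every isotype mouse and every CB mouse, and the anti-PD-L1 mice overlapped all groups. The difference from isotype was -0.38 for anti-Lag3 (SE 0.19, adjusted p = 0.805), -0.37 for anti-PD-L1 (SE 0.19, adjusted p = 0.593) and -0.021 for CB (SE 0.19, 95% confidence interval -0.40 to 0.36, adjusted p = 1). The anti-PD-L1 difference was -0.17 without the first anti-PD-L1 mouse and -0.57 without the second. CB and anti-PD-L1 differed by 0.35, which was 0.14 and 0.54 without the same mice. CB and anti-Lag3 differed by 0.36 (SE 0.19, adjusted p = 0.565). The interaction was 0.73 (SE 0.27, 95% confidence interval 0.18 to 1.27), which did not pass adjustment over all genes (adjusted p = 0.804). It was the only 1 of the 5 interactions with an unadjusted p below 0.05, which 898 of the 15138 genes tested had.

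The 5 genes were chosen with earlier results of these data known, so the shares given here are not tests of the list. Counted as a list, 1 of the 5 genes was called lower and 0 higher in CB against isotype, and 1 lower and 0 higher in CB against anti-Lag3. The medians were -0.24 and -0.22 against a median of 0 over all genes tested. Over all genes 1.96% and 0.304% were called lower in these 2 comparisons. An unadjusted p below 0.05 with a lower value was held by 3 of the 5 genes in each, against 7.26% and 4.76% of all genes. In the other comparisons 0 of 5 were called in the main edgeR fit. There, the same was held by 2 of 5 in anti-PD-L1 against isotype, 1 in anti-Lag3 against isotype, 1 in CB against anti-PD-L1 and 2 in anti-PD-L1 against anti-Lag3. Over all genes it was held by 4.03%, 2.3%, 4.27% and 2.72% in these comparisons. S1pr1 was among them each time. DESeq2 against 0 called S1pr1 in anti-PD-L1 against isotype. With no filter on low counts it was called there and in CB against anti-PD-L1.

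Beyond the 5 genes, 42 further genes of S1P metabolism, receptor signalling, KLF and FOXO regulation and homing were in the table and 39 were tested. In CB against isotype 12 of the 39 were called lower and 0 higher (30.8%, against 1.96% of all genes called lower), with a median of -0.27 against 0 over all genes. The count was 14 when DESeq2 tested against 0. It was 7 without the first isotype or the first CB mouse and 6 without the second isotype or the third CB mouse. When DESeq2 tested against a log2 fold change of 0.2 it was 3.
Those 3 were Arhgef1, Foxo1 and Itga4, which, with Coro1a, also stayed called whichever mouse was left out. Among the marker lists, 2 of 8 CD4 T cell genes (25%) and 2 of 6 erythroid genes (33.3%) were called lower in CB against isotype. On the natural killer cell list it was 1 of 6 (16.7%), and on the B cell, myeloid and CD8 T cell lists 0. In anti-PD-L1 against isotype DESeq2 tested against 0 called 1 of 6 erythroid genes lower, and edgeR called 0. The erythroid sums and Gzma given above moved in the same direction, and their part in the count of pathway genes was not tested. In anti-PD-L1 and in anti-Lag3 against isotype edgeR, DESeq2 and limma each called none of the pathway genes. At an unadjusted p below 0.05, 5 and 4 of them were lower (12.8% and 10.3%, against 4.03% and 2.3% of all genes).

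Signalling downstream of S1PR1 and CCR7 runs through Gi proteins, actin and adhesion regulators, and is switched off by receptor kinases and arrestins. The list of 14 signalling genes also takes in Gna12, Gna13 and Arhgef1, which belong to the G12 and G13 route and not to the Gi route. Of these 14 genes 5 were called lower in CB against isotype. Arhgef1, a guanine nucleotide exchange factor coupled to G12 and G13, was read at 342, 340 and 297 CPM with isotype and at 208, 184 and 211 with CB. All CB mice were below every mouse of the other 3 groups, and the difference from isotype was -0.70 (SE 0.11, adjusted p = 2.49e-04).
Coro1a, an actin regulator whose loss impairs T cell egress, was read at 820, 927 and 861 CPM with isotype and at 584, 730 and 615 with CB (-0.43, SE 0.089, adjusted p = 0.00342). Its exons share 26 bases with those of Bola2 on the other strand, and the strand setting of the counts is not given in the sources used here.
The remaining 3 were the Gi subunit Gnai2 (-0.31, adjusted p = 0.0294), the membrane to actin linker Msn (-0.35, adjusted p = 0.0309) and the kinase Stk4 (-0.42, adjusted p = 0.0156). Each of the 3 lost its call on leaving out 3 or 4 of the 12 mice in turn. The receptor kinase Grk2 (-0.27, adjusted p = 0.154), the arrestin Arrb2 (-0.031, adjusted p = 0.978) and Gna13 (-0.064, adjusted p = 0.895) did not pass.

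**Figure D4:**
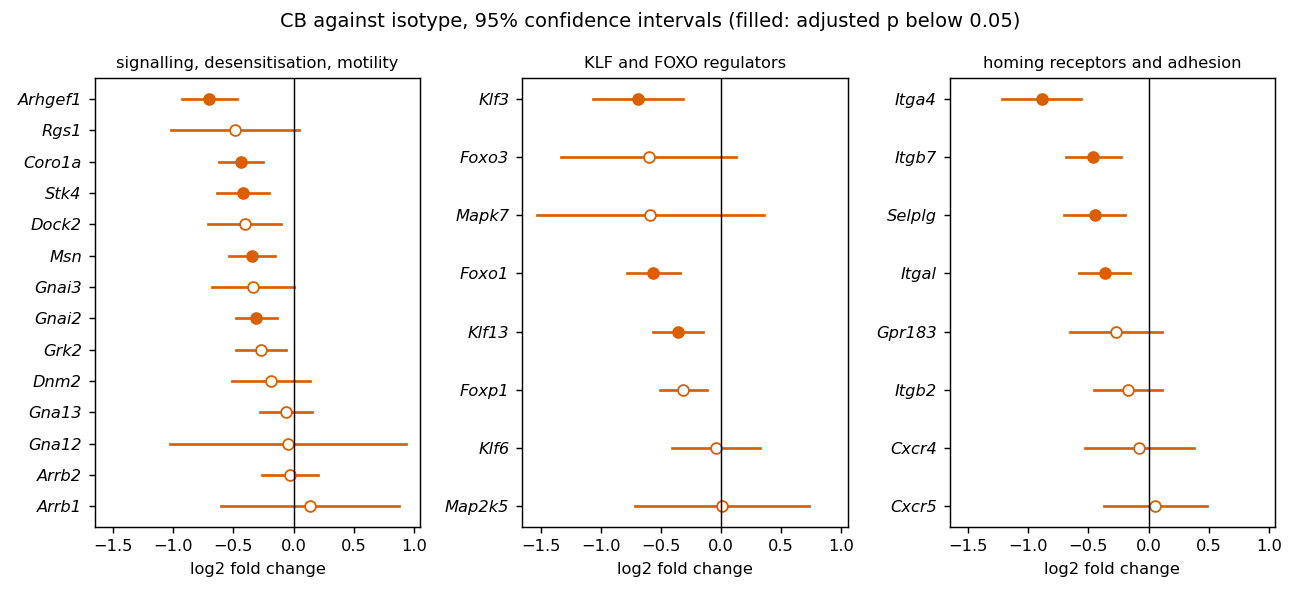
Log2 fold changes of CB against isotype are plotted for the tested genes of 3 lists, with 95% confidence intervals and filled points for an adjusted p below 0.05. The 12 filled points all lie below 0, from -0.89 for Itga4 to -0.31 for Gnai2.

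Of 8 KLF and FOXO regulators 3 were called lower in CB against isotype. Foxo1, which acts upstream of Klf2, was read at 257, 227 and 224 CPM with isotype and at 150, 166 and 163 with CB. No CB mouse reached the lowest mouse of any other group, and the difference from isotype was -0.56 (SE 0.11, adjusted p = 0.00203). Klf3 (-0.69, SE 0.18, adjusted p = 0.0247) and Klf13 (-0.36, SE 0.10, adjusted p = 0.0412), relatives of Klf2, were also lower. Klf3 lost its call without any 1 of 3 mice and Klf13 without any 1 of 8. Klf3 shares exon bases with Gm20033 on the opposite strand, which had 487 reads in all. Foxp1, which restrains FOXO1 targets in naive T cells, did not pass (-0.32, adjusted p = 0.0580), nor did Klf6 (-0.043, adjusted p = 0.985) or Foxo3 (-0.60, adjusted p = 0.422).

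Of 8 homing and adhesion genes besides Ccr7 and Cd69, 4 were called lower in CB against isotype, and all 4 encode integrin chains or selectin ligand. Itga4, the alpha 4 integrin chain, was read at 97.1, 128 and 127 CPM with isotype and at 58.7, 64.0 and 67.1 with CB, with no overlap (-0.89, SE 0.16, adjusted p = 0.00115). After anti-PD-L1 it stood at 84.8, 54.3 and 81.3 CPM, a range that took in the CB mice. Its partner Itgb7 was lower by 0.46 (log2 fold change -0.46, SE 0.11, adjusted p = 0.0131), the P-selectin ligand gene Selplg by 0.45 (-0.45, SE 0.12, adjusted p = 0.0342) and the LFA-1 chain Itgal by 0.36 (-0.36, SE 0.10, adjusted p = 0.0411). These 3 lost their calls on leaving out 3, 4 and 6 of the 12 mice in turn. Itga4 shares exon bases with Cerkl on the opposite strand, which had 411 reads in all. The other LFA-1 chain, Itgb2 (-0.17, adjusted p = 0.623), the chemokine receptor Cxcr4 (-0.075, adjusted p = 0.963) and the oxysterol receptor Gpr183 (-0.27, adjusted p = 0.516) were not called.

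**Figure D5:**
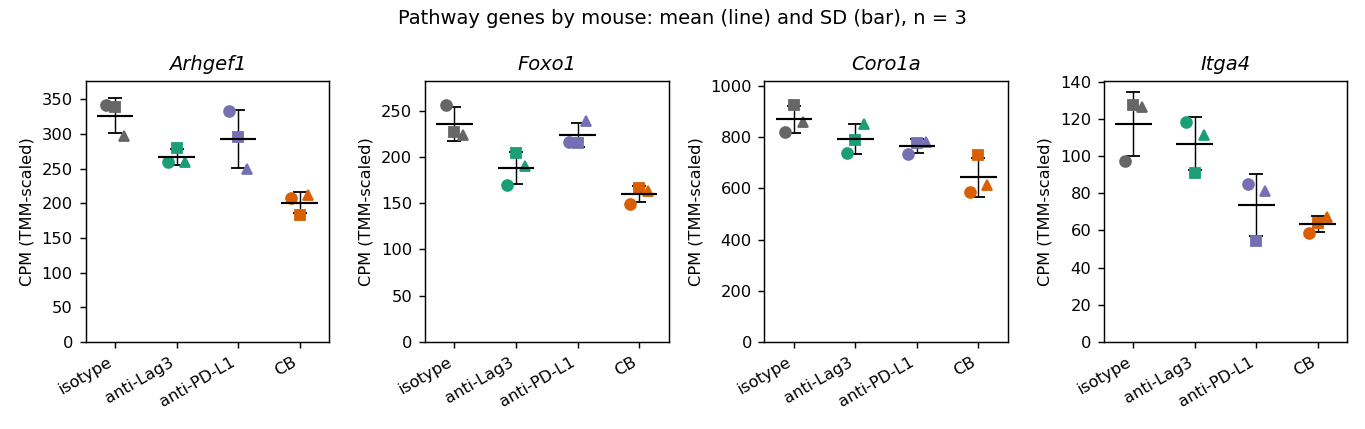
Levels in CPM (TMM-scaled, linear axis from 0) are plotted by mouse for the 4 pathway genes called in every leave-one-out fit of CB against isotype, with mean and SD (n = 3). For Arhgef1, Foxo1 and Coro1a all 3 CB mice lie below every mouse of the other groups, and for Itga4 the CB and anti-PD-L1 mice overlap.

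Genes that make, export or break down S1P were not called in CB against isotype: 0 of 8 tested passed in edgeR or DESeq2 and 0 had an unadjusted p below 0.05. The phosphatase Sgpp1 gave -0.27 (adjusted p = 0.532), the kinase Sphk2 0.36 (adjusted p = 0.473) and the lyase Sgpl1 0.23 (adjusted p = 0.834). Sphk2 shares exon bases with Rpl18 on the opposite strand, which had 199471 reads against its own 5892. Sphk1, Spns2 and Plpp3 had 90, 51 and 45 reads over all libraries and allow no statement.
Against the single antibodies fewer pathway genes were called. CB against anti-PD-L1 gave 3 of 39 lower (7.69%, against 0.165% of all genes) and 0 higher, Arhgef1 (-0.54), Foxo1 (-0.49) and Itgb7 (-0.50). It gave 0 without any 1 of the CB mice or without the first or second anti-PD-L1 mouse, and 1 without the second isotype or the second or the third anti-Lag3 mouse.
CB against anti-Lag3 gave 2 of 39 lower (5.13%, against 0.304% of all genes) and 0 higher, Klf13 (-0.45) and Itga4 (-0.75). It gave 0 without the first or the third CB mouse or the third anti-Lag3 mouse, and 1 without the second CB mouse or the first or second anti-Lag3 mouse.

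The genes whose log2 CPM ran most alike with S1pr1 over the 12 libraries, among 10447 genes averaging 30 or more reads, were Pfn1 (profilin, an actin regulator, Pearson's r = 0.95), Lta4h (a leukotriene synthesis enzyme, r = 0.95) and Stmn1 (a microtubule regulator, r = 0.94). The most opposite were Hmgn1 (r = -0.95), Snhg5 (r = -0.94) and Bms1 (r = -0.93). These coefficients describe 12 points that share 4 treatments, so they carry the group differences. In CB against isotype Pfn1 differed by -1.15 and Hmgn1 by 0.45.
Among the genes most alike to Klf2 were Mtx3 (r = 0.91) and Sorl1 (r = 0.91), and the most opposite Ivns1abp (r = -0.86), Heatr3 (r = -0.84) and Zfp64 (r = -0.84). For Ccr7 they were Gpr132 (r = 0.93), Aurkb (r = 0.93) and Ets2 (r = 0.90) against Smco4 (r = -0.93), Snu13 (r = -0.90) and Shmt2 (r = -0.88). S1pr4 ran most with Gpalpp1 (r = 0.93), Mrpl50 (r = 0.88) and Ccnd3 (r = 0.88) and against Akap8 (r = -0.91), Arhgap5 (r = -0.90) and Utp18 (r = -0.89). Cd69 ran most with Mrrf (r = 0.93), Taf9b (r = 0.87) and Zfp335os (r = 0.86) and against Pcif1 (r = -0.85), Neat1 (r = -0.84) and Fhod1 (r = -0.81). Genes without a symbol and predicted genes were passed over, of which 1 ranked before Utp18 for S1pr4 and 1 before Pcif1 for Cd69. None of the genes given here was another of the 5 genes.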

How the data were processed

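RNA of sorted responder cells from 12 mice was sequenced as 3' mRNA (QuantSeq, without molecular identifiers). Per the submitters' processing notes and the study's methods, the authors trimmed reads (Cutadapt 1.18), aligned them to GRCm38 (STAR 2.6.1a), counted uniquely mapped reads per gene (featureCounts 1.6.4) and deposited raw counts, together with DESeq2 rlog values on a log2 scale that were used here in 1 alternative only. The annotation release and strand setting are not given in the sources used here. Of 56691 gene identifiers 52073 matched GENCODE M21, and 114 spike-in rows were left out. Genes with at least 30 reads over the 12 samples were kept. One edgeR (4.0.16) quasi-likelihood fit of 4 group means with TMM scaling gave 7 contrasts, with Benjamini-Hochberg adjustment over 15138 genes. Standard errors came from the coefficient and its F statistic. DESeq2 (1.42.0) and limma (3.58.1) in R 4.3.3 served the alternatives, and the scripts were tested on simulated data. The p-values weigh each difference against the spread between mice within groups, estimated with information shared across genes and groups. That spread may also hold differences between sorts, for which the fit has no term.

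The 5 genes and all gene lists were chosen with earlier results of these data known, and no p-value was adjusted over a list alone. Named beyond the 5 genes were the pathway genes called in any comparison, up to 3 uncalled genes per list with the highest mean CPM, and the 3 genes most and least alike in log2 CPM (prior count 2). One gene that this rule picks is not reported here. Marker genes of the T cell and other cell type lists, genes that overlap a pathway gene, and Sphk1, Spns2 and Plpp3, which had few reads, lie outside the rule and were named after their values were seen. Whether a replicate number marks a sort batch is not given in the sources used here, so the main fit holds no such term. Of 18 same-number pairs, correlations of deviations ran from -0.061 to 0.12 and 2 exceeded 0.1. Pairs of different numbers were not compared, so these values cannot decide whether the numbers pair the samples. No 2 libraries of a group agreed within counting noise.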

Additional observations from a re-analysis of the deposited data

How the results depend on the processing

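S1pr1 stayed called lower in CB against isotype in all 12 fits that left out 1 mouse (-1.56 to -1.18) and in all 8 alternatives (-1.43 to -0.92), and in CB against anti-Lag3 in all 12 (-1.20 to -0.82). In anti-PD-L1 against isotype it ranged from -0.86 to -0.75 with 1 mouse left out. There it passed the threshold with no filter on low counts (-0.80, adjusted p = 3.26e-04), with only the groups compared fitted (-0.79, adjusted p = 0.0271), with limma on the rlog values (-0.51, adjusted p = 0.0315) and with DESeq2 against 0 (-0.79, adjusted p = 0.0165), which made 1 of the 5 genes called. In CB against anti-PD-L1 it passed with no filter (-0.62, adjusted p = 0.0131), again 1 of 5. The cause was not tested.

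Whether the replicate number marks a sort batch is not given in the sources used here. With this number as a block, S1pr1 passed in anti-PD-L1 against isotype (-0.79, adjusted p = 0.0099) and in CB against anti-PD-L1 (-0.64, adjusted p = 0.0288). Ccr7 passed in CB against isotype (-0.29, adjusted p = 0.0381), which made 2 of 5 genes called there. The block called 23 genes in anti-PD-L1 against isotype, 9 in anti-Lag3 against isotype, 137 in CB against anti-PD-L1, 208 in CB against anti-Lag3, with 4 pathway genes lower, and 4 for the interaction.

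Counts of called genes moved more than these values. In the order anti-PD-L1 against isotype, anti-Lag3 against isotype, CB against anti-PD-L1, CB against anti-Lag3, anti-PD-L1 against anti-Lag3 and interaction, the counts of 5, 0, 56, 105, 0 and 0 became 40, 14, 150, 252, 2 and 10 with no filter, 56, 9, 178, 280, 10 and 5 with DESeq2 against 0, and 11, 2, 18, 41, 8 and 2 with DESeq2 against 0.2. With limma on the rlog values they were 9, 0, 90, 180, 1 and 1. Only the groups compared gave 21 in CB against anti-PD-L1 and 1 in anti-PD-L1 against anti-Lag3. For CB against isotype the count of 649 ranged from 233, with DESeq2 against 0.2, to 918 over the 8 alternatives. The pathway genes called lower in CB against isotype ranged from 3 to 14. With DESeq2 against 0.2 they were 3 in CB against isotype and 0 in both CB against anti-PD-L1 and CB against anti-Lag3. In CB against anti-PD-L1 they were also 0 with only the groups compared. In CB against anti-Lag3 they were 5 with DESeq2 against 0.

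Leaving out 1 mouse gave 395 to 712 genes for CB against isotype (395 without the third CB mouse, 417 without the first isotype mouse and 428 without the first CB mouse), 0 to 11 for anti-PD-L1 against isotype, 0 to 1 for anti-Lag3 against isotype, 4 to 59 for CB against anti-PD-L1, 44 to 135 for CB against anti-Lag3, 0 to 1 for anti-PD-L1 against anti-Lag3 and 0 to 2 for the interaction. The pathway genes called lower ranged from 6 to 13, 0 to 3 and 0 to 2 in CB against isotype, anti-PD-L1 and anti-Lag3.

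Values near 0 changed sign without being called. Ccr7 in anti-Lag3 against isotype was 0.0014 with no filter, 0.0024 with the replicate block and 0.000215 with only the groups compared, and -0.052 to 0.074 with 1 mouse left out. Cd69 in anti-PD-L1 against anti-Lag3 was -0.014 with the block and -0.00600 with limma, and -0.19 to 0.21 with 1 mouse left out, and in CB against isotype -0.098 to 0.12. For S1pr4 the leave-one-out range was -0.12 to 0.28 in anti-PD-L1 against isotype, -0.098 to 0.019 in anti-Lag3 against isotype, -0.37 to 0.032 in CB against anti-PD-L1, -0.092 to 0.31 in anti-PD-L1 against anti-Lag3 and -0.34 to 0.064 for the interaction. For Klf2 it was -0.10 to 0.016 in anti-Lag3 against isotype, -0.13 to 0.018 in CB against anti-PD-L1 and -0.10 to 0.044 for the interaction, and for Ccr7 -0.17 to 0.11 in CB against anti-PD-L1 and for the interaction. Other sign changes among the 5 genes did not occur in these settings. Depth limits what can be said of S1pr2, Sphk1, Spns2 and Plpp3, which had 1021, 90, 51 and 45 reads over all libraries.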
